A study of Mus musculus with 14 samples.

Results

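The genes described here move calcium ions across the membranes of the neuron: the subunits of voltage-gated calcium channels, the calcium pumps of the endoplasmic reticulum, plasma membrane and Golgi, and the IP3 and ryanodine receptors that release calcium from the endoplasmic reticulum. They were found by their gene symbols (Cacna, Cacna2d, Cacnb and Cacng genes; Atp2a, Atp2b and Atp2c genes; Itpr and Ryr genes), and for each the probe set brightest on average was read. This gave 38 genes of the 18193 measured, read by 93 probe sets. In all, 36 of the 38 lay above the 25th percentile of the array in every library. The others were Cacna1f and Cacna1s. At 3 weeks Cacna1f was under that percentile in all 3 control and in 3 of 4 Tfr1-null libraries. Cacna1s was under it in 2 of 4 Tfr1-null libraries at 3 weeks. At 10 weeks Cacna1s was under it in all 3 Tfr1-null and all 4 control libraries. Both encode pore subunits best known from retina and skeletal muscle. Itpr1, Cacnb3 and Cacna1i were not analysed here.

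The measurements were log2 signals on 14 Affymetrix arrays, 1 per library, of mRNA bound to the ribosomes of dopaminergic neurons in the ventral midbrain. The neurons carried RiboTag, a tagged ribosomal protein through which the ribosomes of one cell type and their mRNA are pulled out of a tissue lysate. In Tfr1-null mice (Tfr1ΔDN) the transferrin receptor gene Tfrc, whose product brings iron into cells, was deleted in those neurons, control mice were Tfr1 heterozygotes, and both came from F2 crosses of 129Sv and C57BL/6. The libraries at 3 weeks of age, described as early neurodegeneration, were 3 of control and 4 of Tfr1-null mice, and those at 10 weeks, described as late, were 4 and 3. The sources used here do not give the driver of the deletion. The labels do not say whether replicates were separate animals, so p-values may measure technical spread alone.

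Voltage-gated calcium channels open when the membrane depolarizes, and dopaminergic neurons of the midbrain admit calcium through them with every cycle of their spontaneous firing. L-type channels with the Cacna1d pore are known for opening at the voltages of this pacemaking. The calcium that enters is bound by buffer proteins, pushed out by plasma membrane pumps and taken into the endoplasmic reticulum by the SERCA pumps encoded by Atp2a1, Atp2a2 and Atp2a3. IP3 and ryanodine receptors let it out again.

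The labels of 2 libraries were doubtful. The array carries control probe sets for several stretches of the Tfrc transcript. The library titled Tfr1-null 3 weeks 1 has a source name that says control, and the middle Tfrc control probe set read 8.82 there, beside 8.80 to 8.86 in the 3-week controls and 10.70 to 10.98 in the other Tfr1-null libraries. The library titled Control 10 weeks 1 read 11.43, beside 9.17 to 9.86 in the other 10-week controls and 11.39 to 11.69 in the Tfr1-null libraries. The probe set for the 5′ end read the opposite way: it was 9.50 to 9.59 in 3-week controls, 6.88 to 7.73 in Tfr1-null replicates 2 to 4 and 9.67 in the library titled Tfr1-null 3 weeks 1. At the later age it was 9.63 to 10.44 in control replicates 2 to 4, 7.79 to 9.29 in Tfr1-null libraries and 8.55 in the library titled Control 10 weeks 1. Counts of called genes are therefore given both for all 14 libraries as titled and for 12 libraries without these. Differences of single genes are those of the 12 libraries wherever "as titled" is not written. Of the markers of dopaminergic neurons, all 13 measured lay above the 25th percentile in every library, and Th, which encodes tyrosine hydroxylase, read at least 13.54. So did all 8 astrocyte, 7 oligodendrocyte, 10 endothelial and pericyte and 7 GABAergic markers measured, and 10 of 11 of microglia. Of glutamatergic, muscle and blood cell markers 2 of 4, 4 of 8 and 3 of 9 did. That threshold therefore does not show that the mRNA came from dopaminergic neurons alone. The median of the array was 6.41 to 6.47 at 3 weeks but 7.36 to 7.43 at 10 weeks. The Y-linked gene Eif2s3y read 8.50 or more in 1 library of the younger mice, Control 3 weeks 2, and in all 7 of the older. In the other 3-week libraries it read 2.90 to 3.36. Levels are therefore not compared between ages. In a change at 10 weeks minus that at 3 weeks, age cannot be told apart from sex.

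The sequences of 3 promoters are shown first because the results turn on these genes: Atp2a3 and Cacna2d1, whose signal differed between genotypes, and Cacna1d, the pacemaking pore, whose signal did not pass the test. Each is the 250 bases before the annotated start, 5′ to 3′ on the gene's own strand, from RefSeq on build GRCm38.p6; capitals mark the GC box GGGCGG on either strand.
Atp2a3, chr11:72960919-72961168, plus strand: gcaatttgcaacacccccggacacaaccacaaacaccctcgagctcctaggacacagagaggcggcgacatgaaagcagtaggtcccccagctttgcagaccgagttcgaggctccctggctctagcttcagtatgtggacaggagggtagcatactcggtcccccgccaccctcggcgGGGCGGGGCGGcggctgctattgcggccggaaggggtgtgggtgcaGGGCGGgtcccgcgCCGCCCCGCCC
Cacna2d1, chr5:15934441-15934690, plus strand: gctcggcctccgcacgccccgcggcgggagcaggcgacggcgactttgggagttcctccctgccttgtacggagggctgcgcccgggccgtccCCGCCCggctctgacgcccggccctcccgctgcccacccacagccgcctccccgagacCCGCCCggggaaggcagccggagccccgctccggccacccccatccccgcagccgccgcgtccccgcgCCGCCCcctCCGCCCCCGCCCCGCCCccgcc
Cacna1d, chr14:30353487-30353736, minus strand: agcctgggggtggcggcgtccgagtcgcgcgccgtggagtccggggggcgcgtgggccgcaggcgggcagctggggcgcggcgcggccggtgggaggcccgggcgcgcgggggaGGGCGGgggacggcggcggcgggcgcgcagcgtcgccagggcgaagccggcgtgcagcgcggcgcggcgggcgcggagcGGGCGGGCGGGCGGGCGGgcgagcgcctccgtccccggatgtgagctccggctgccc
The windows hold 5, 6 and 5 GC boxes, some of them overlapping. A second annotated start of Cacna1d, not shown, has 0 in its window. GC boxes lay in 32.7% of the 32851 windows of this length and in 22 of the 40 windows of the 28 member genes that were matched (20 genes). The letters ACGTG or GCGTG, the core of the hypoxia response element searched on both strands, were in 38.6% of all windows and in 19 of those 40 (16 genes). The Atp2a3 window holds 0 such cores, the Cacna2d1 window 1 and the Cacna1d window 2.

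The pumps of the endoplasmic reticulum gave the largest difference among the 38 genes. Atp2a3 encodes SERCA3, a form of the pump with lower calcium affinity than the widespread SERCA2. At 3 weeks Atp2a3 read 9.07, 9.39 and 9.63 log2 units in the control libraries. In the Tfr1-null libraries it read 6.08, 5.81 and 5.13 in replicates 2 to 4 and 9.56 in the library titled Tfr1-null 3 weeks 1. Replicates 2 to 4 thus lay far below every control, and the library of doubtful label lay among the controls.

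Without that library Atp2a3 fell by 3.69 log2 units at 3 weeks, 12.9-fold (SE 0.30, 95% interval -4.36 to -3.02, limma adjusted p = 0.000115 over all genes). With all 14 libraries as titled the difference was -2.72 (SE 0.84, adjusted p = 1.00) and was not called. An exact two-sided permutation test of the single gene gave p = 0.1 for the 3 against 3 libraries, the smallest that design allows, and p = 0.114 for all 7.

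At 10 weeks Atp2a3 read 8.93, 9.93 and 9.97 in control replicates 2 to 4 and 7.71 in the library titled Control 10 weeks 1. The Tfr1-null libraries read 7.10, 6.69 and 6.94. All 3 lay below all 4 controls, and the control of doubtful label was the control nearest to them. Without it Atp2a3 fell by 2.70 log2 units, 6.49-fold (SE 0.30, 95% interval -3.37 to -2.03, adjusted p = 0.000419), and as titled the difference was -2.22 (SE 0.84, adjusted p = 0.172), which was not called. The change at 10 weeks minus that at 3 weeks was 0.99 (SE 0.43, adjusted p = 0.378) in the 12 libraries, so a difference between ages was not shown.

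A second, dimmer probe set of Atp2a3 moved the same way. In the 3-week controls it read 7.17, 7.33 and 7.98, in Tfr1-null replicates 2 to 4 it read 5.55, 5.66 and 5.62, and in the library titled Tfr1-null 3 weeks 1 it read 7.68, among the controls. At 10 weeks it read 7.08, 7.61 and 8.48 in control replicates 2 to 4, 6.38 in the library titled Control 10 weeks 1 and 6.18, 6.68 and 6.19 in Tfr1-null libraries, so that the groups of 12 libraries did not overlap and those as titled did. The differences in 12 libraries were -1.88 at 3 weeks (SE 0.32, adjusted p = 0.0159 over all probe sets) and -1.37 at 10 weeks (SE 0.32, adjusted p = 0.0234). As titled they were -1.37 (adjusted p = 1.0) and -1.04 (adjusted p = 0.312), and neither was called. In bulk libraries such as these, fewer cells of a type and less of the mRNA per cell cannot be told apart.

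Atp2a2 encodes SERCA2, the main calcium pump of the endoplasmic reticulum in most neurons. At 3 weeks Atp2a2 read 13.15, 12.99 and 13.03 in controls and 13.08, 13.11, 12.91 and 13.04 in Tfr1-null libraries. At 10 weeks it read 13.76, 13.84, 13.59 and 13.92 in controls and 14.00, 13.84 and 13.82 in Tfr1-null libraries. The groups overlapped at both ages. As titled Atp2a2 differed by -0.02 and 0.11. In 12 libraries the difference was -0.04 at 3 weeks (95% interval -0.28 to 0.21, adjusted p = 0.993) and 0.10 at 10 weeks (-0.14 to 0.34, adjusted p = 0.618), so a change of Atp2a2 as large as that of Atp2a3 lies outside both intervals. The 6 probe sets of Atp2a2 differed by -0.65 to 0.01 at 3 weeks and by -0.55 to 0.33 at 10 weeks, and none was called. The lowest at 10 weeks, with a mean level of 8.14, had a 95% interval of -0.98 to -0.11 (adjusted p = 0.114 over all probe sets). As titled it differed by -0.48 (-0.87 to -0.08). Those with mean levels of 13.07 and 12.21 each differed by -0.11 in 12 libraries.

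Set directly against each other, the change of Atp2a3 minus that of Atp2a2 was -3.65 at 3 weeks (SE 0.32, 95% interval -4.37 to -2.94) and -2.80 at 10 weeks (SE 0.32, -3.52 to -2.09) in 12 libraries. As titled it was -2.70 (-4.51 to -0.88) and -2.33 (-4.15 to -0.52). Each of these intervals excluded 0. They are not adjusted for the number of genes, and the pair was chosen with earlier results of these data known. As titled the change of Atp2a3 itself was not called, so the unequal change rests mainly on the 12 libraries. Atp2a1, the SERCA pump of fast skeletal muscle, differed by -0.04 and -0.05 and did not pass the test.

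**Figure D1:**
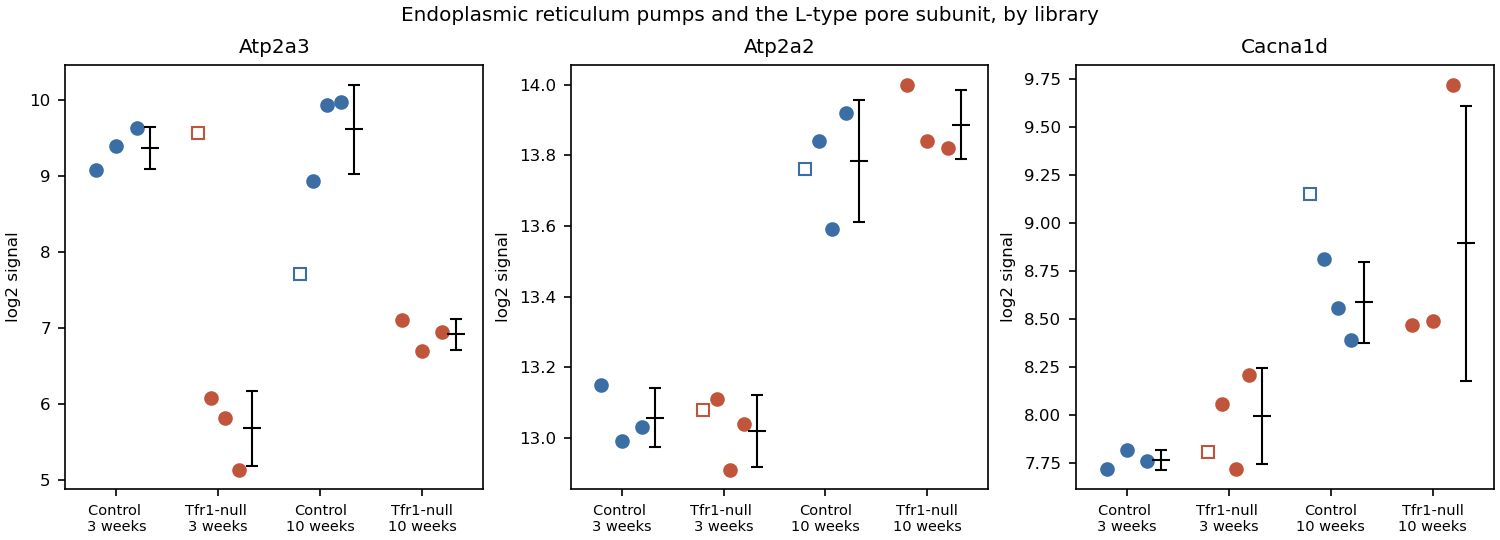
Log2 signal of Atp2a3, Atp2a2 and Cacna1d (vertical axes, each with its own scale) in every library, in 4 groups by genotype and age (horizontal axis; control blue, Tfr1-null red). Filled circles are the 12 libraries, open squares the libraries titled Tfr1-null 3 weeks 1 and Control 10 weeks 1, and bars the mean ± SD of the circles. Atp2a3 lies at 5.13 to 6.08 in the red circles at 3 weeks and at 9.07 to 9.63 in the blue ones, whereas the groups overlap for Atp2a2 and Cacna1d.

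Markers of other cells were read beside this result, because Atp2a3 is also abundant in Purkinje cells of the cerebellum. Of the Purkinje list, 6 of 7 genes were measured, and all 6 lay above the 25th percentile in every library. At 3 weeks 0 of the 6 passed limma's test in 12 libraries, beside 1.84% of all genes. There 2 had an unadjusted p under 0.05, beside 10.6% of all genes. The summed linear signal was 7827 to 7987 in controls and 6953 to 7424 in Tfr1-null libraries. Such sums weigh the brightest genes most, here Calb1, which also marks dopaminergic neurons. In 3-week controls Calb1 read 12.03 to 12.15 log2 units, beside 11.14 to 11.28 for Rgs8 and 8.83 to 9.12 for Car8. At 10 weeks 2 of the 6 fell, Car8 by 1.61 (adjusted p = 0.0116) and Rgs8 by 0.60 (adjusted p = 0.0251), beside 6.34% of all genes. The sums were 14064 to 20461 in controls and 10451 to 13224 in Tfr1-null libraries. Of the markers, Car8 read 11.26 and the glutamate transporter gene Slc1a6 read 11.19 in Control 10 weeks 2, above the other libraries of that age. Pcp2, a Purkinje cell gene of the same list, read 8.05 there and 8.91 and 8.72 in Control 10 weeks 3 and 4. In the same 3 libraries Atp2a3 read 8.93, 9.93 and 9.97. Rgs8 was highest in Control 10 weeks 3, at 11.68. As titled 0 of the 6 passed limma's test at either age. An unadjusted p under 0.05 was reached by 1 at 3 weeks and 5 at 10 weeks, beside 4.67% and 19.9% of all genes.

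The part of Purkinje cell RNA in the fall of Atp2a3 was not tested. Of the 13 dopaminergic markers, 0 passed limma's test at 3 weeks in 12 libraries, beside 1.84% of all genes. There 2 had an unadjusted p under 0.05, beside 10.6% of all genes. At 10 weeks 4 of the 13 fell, beside 6.34% of all genes. The largest falls were of Foxa1, a factor of the development of these neurons, by 0.86 and the dopamine receptor Drd2 by 0.85. The summed signal of the 13 markers at 3 weeks was 81823 to 84267 in controls and 74095 to 78173 in Tfr1-null libraries. At 10 weeks it was 144799 to 152909 and 114399 to 135214. In 12 libraries the sums did not overlap at either age, and their part in the results was not tested. As titled 0 of the 13 passed limma's test at either age. An unadjusted p under 0.05 was reached by 1 at 3 weeks and 8 at 10 weeks, beside 4.67% and 19.9% of all genes.

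The other marker lists were read the same way in 12 libraries. At 10 weeks the astrocyte factor Sox9 rose by 1.14 (adjusted p = 0.0327), with a summed signal of the 8 astrocyte markers of 17342 to 24337 in controls and 20004 to 27103 in Tfr1-null libraries. Slc32a1, the vesicular transporter of inhibitory neurons, rose by 0.70 (adjusted p = 0.0071), with sums of the 7 GABAergic markers of 8937 to 13255 and 10645 to 14615. In both lists 1 marker rose, beside 4.73% of all genes, and the sums of the groups overlapped. Of the markers of microglia, oligodendrocytes, endothelial cells and pericytes, glutamatergic neurons, and blood cells, 0 were called by limma at either age. In these lists 2, 0, 1, 1 and 1 had an unadjusted p under 0.05 at 10 weeks and 0 of each at 3 weeks. Of all genes 26.4% and 10.6% did. The summed signal of the blood cell markers at 10 weeks was 870 to 995 in controls and 795 to 812 in Tfr1-null libraries, with no overlap, and its part in the results was not tested.

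Across the whole set, few of the 38 genes passed the test. At 3 weeks 0 were called with all 14 libraries, where 0% of all genes were called by limma; 1 member and 849 genes (4.67%) had an unadjusted p under 0.05. In 12 libraries 1 member, Atp2a3, was called at 3 weeks, against 1.84% of all genes in either direction and 1.16% lower. At 10 weeks 1 member, Cacna2d1, was called with all 14 libraries, against 1.21% of all genes and 0.594% higher. In 12 libraries 3 were called at 10 weeks, against 11.1% of all genes: Cacna2d1 was higher, as were 4.73% of genes, and Atp2a3 and Cacna1g were lower, as were 6.34%. The 3 called are 7.89% of the members, below the background, and 1 called is 2.63% of them, which a single gene puts above backgrounds of 1.84% and 1.21%. At 3 weeks 4 members in 12 libraries had an unadjusted p under 0.05 (10.5%, against 10.6% of all genes). At 10 weeks 5 did as titled (13.2%, against 19.9%) and 8 in 12 libraries (21.1%, against 26.4%).

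The differences of most members were small and about the size of those of all genes. In 12 libraries the 95% interval of a member reached a median of 0.32 log2 units to either side at both ages, so small changes could be missed. In 12 libraries the median difference of the 38 was 0.03 at 3 weeks and 0.05 at 10 weeks, beside 0.01 and -0.01 for all genes. The median absolute difference was 0.09 at 3 weeks and 0.22 at 10 weeks, beside 0.12 and 0.20. In all, 36 of 38 members at 3 weeks and 34 at 10 weeks lay within 0.5 log2 units of 0. Without Atp2a3 the members ranged from -0.60 (Cacng5) to 0.23 (Cacna1d) at 3 weeks and from -0.70 (Cacng5) to 0.89 (Cacna2d1) at 10 weeks. The genotype groups of 12 libraries did not overlap for 6 members at 3 weeks (15.8%, against 24.9% of all genes) and for 7 at 10 weeks (18.4%, against 22.5%). As titled they did not overlap for 1 member at 3 weeks (2.63%, against 8.15%) and 4 at 10 weeks (10.5%, against 10.1%).

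**Figure D2:**
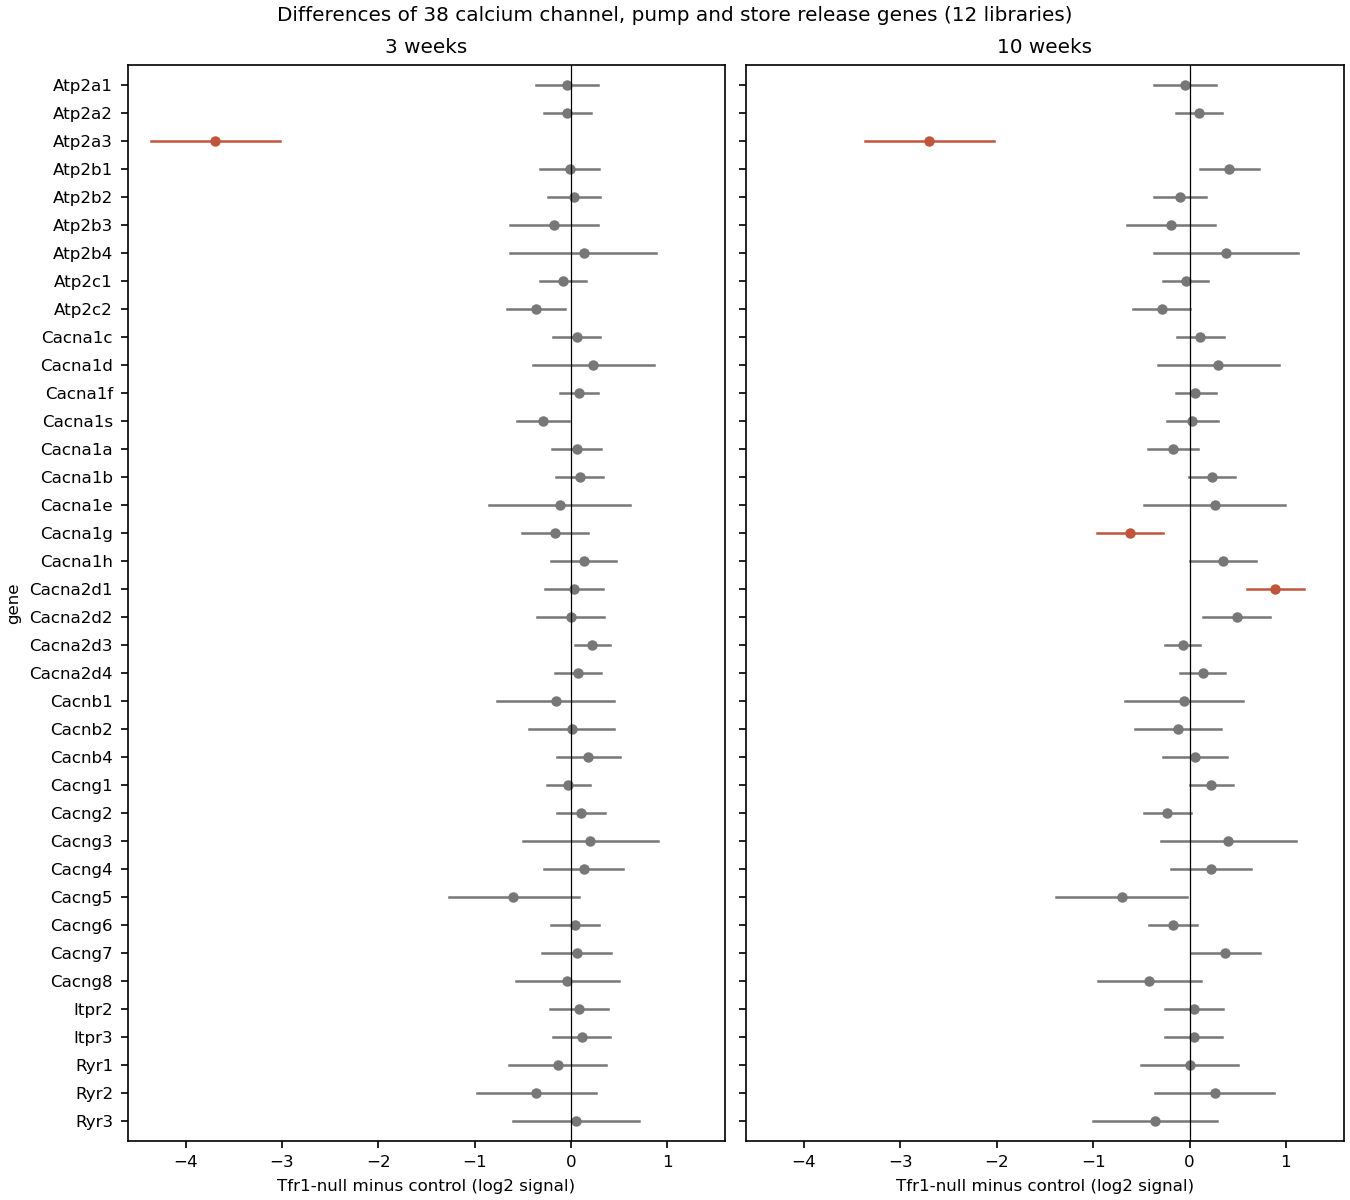
Difference between Tfr1-null and control in log2 signal (horizontal axes) for each of the 38 genes (vertical axis), at 3 weeks (left) and 10 weeks (right), in 12 libraries. Points are limma estimates, lines 95% intervals, and red marks the genes called. Atp2a3 stands at -3.69 and -2.70, and every other gene lies between -0.70 and 0.89.

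The α2δ subunits sit outside the membrane, carry channels to the cell surface and raise the current through them. Cacna2d1, the first of the family and a target of gabapentin, read 10.64, 10.41 and 10.84 in control replicates 2 to 4 at 10 weeks and 11.11 in the library titled Control 10 weeks 1. In the Tfr1-null libraries it read 11.48, 11.64 and 11.44. All 3 lay above all 4 controls, and the control of doubtful label was again the nearest. Cacna2d1 rose by 0.89 log2 units, 1.86-fold, in 12 libraries (SE 0.13, 95% interval 0.60 to 1.19, adjusted p = 0.00243) and by 0.77 as titled (SE 0.15, adjusted p = 0.0377).

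The call as titled was kept without Control 10 weeks 1 or Tfr1-null 3 weeks 1, where 2 members were called, and was lost, with Cacna2d2 called in its place, without Control 10 weeks 4. Without any 1 of the other libraries 0 members were called at 10 weeks. In 12 libraries, a fit to the 10-week libraries alone gave the same difference, 0.89, with an adjusted p of 0.0507.

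At 3 weeks Cacna2d1 read 10.35, 10.20 and 10.28 in controls and 10.32, 10.31, 10.10 and 10.51 in Tfr1-null libraries, which overlapped. The difference in 12 libraries was 0.03 (95% interval -0.27 to 0.33). The change at 10 weeks minus that at 3 weeks was 0.86 (SE 0.19, adjusted p = 0.108; unadjusted p = 0.000861), which did not pass the test. None of the 38 members passed that test of the ages, beside 0% of all genes in 14 libraries and 0.286% in 12. The unadjusted p was under 0.05 for 3 members in each, beside 7.48% and 12.2% of all genes.

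The 5 probe sets of Cacna2d1 disagreed. In 12 libraries at 10 weeks a second probe set with a mean level of 9.12 differed by 0.56 (adjusted p = 0.0354 over all probe sets), and its name marks it as open to cross-hybridization. Another, at a mean level of 10.66 almost as bright as the one reported, differed by 0.19 (95% interval -0.19 to 0.57, adjusted p = 0.548). A dimmer one differed by -1.11 (adjusted p = 0.258) and read 5.13 in Tfr1-null 10 weeks 1, under the 25th percentile of that array, 5.50. The dimmest was not above background in any library. The mean of all 5, these included, differed by 0.03 (adjusted p = 0.913). In 12 libraries 2 of the 5 probe sets of Cacna2d1 thus rose. As titled 1 of the 5 did, since the second probe set differed by 0.38 (adjusted p = 0.267) and read 9.90 in the library titled Control 10 weeks 1, above the 9.87, 9.89 and 9.54 of the Tfr1-null libraries.

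**Figure D3:**
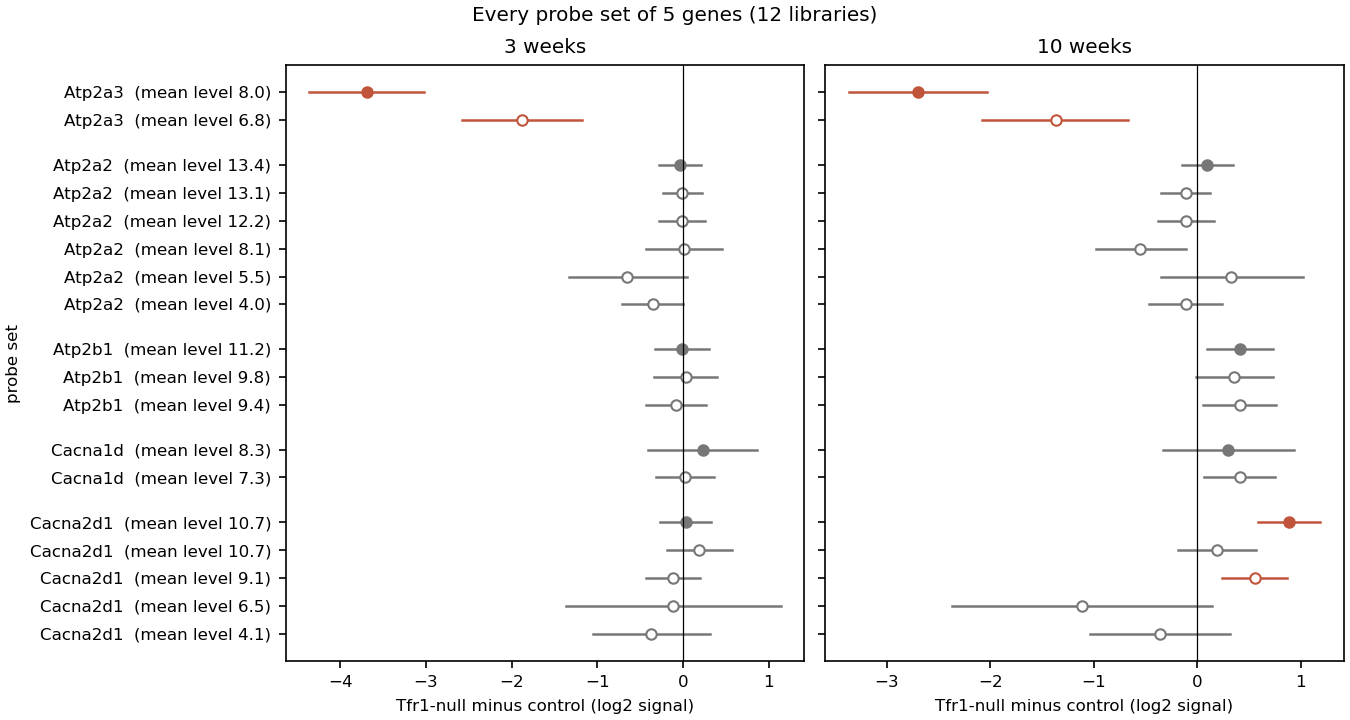
Difference between Tfr1-null and control in log2 signal (horizontal axes) for every probe set of 5 genes (vertical axis, with the mean level over 14 libraries), at 3 weeks (left) and 10 weeks (right), in 12 libraries. Filled points are the probe sets used for the gene, open points the others, lines 95% intervals, and red marks adjusted p under 0.05 over all probe sets. Both sets of Atp2a3 are red at both ages, and at 10 weeks 2 of the 5 sets of Cacna2d1 are.

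Cacna2d2, the α2δ gene whose loss gives mice ataxia and seizures, read 12.44, 12.09 and 12.74 in control replicates 2 to 4 at 10 weeks, 12.28 in the library titled Control 10 weeks 1, and 12.77, 12.80 and 13.15 in Tfr1-null libraries. The groups did not overlap. The difference was 0.49 in 12 libraries (95% interval 0.14 to 0.83, adjusted p = 0.0725) and 0.52 as titled (adjusted p = 0.0771), and it was not called. Cacna2d3 and Cacna2d4 differed by -0.07 and 0.14. The change of Cacna2d1 exceeded that of Cacna2d2 by 0.41 (95% interval 0.10 to 0.72), that of Cacna2d3 by 0.96 (0.67 to 1.26) and that of Cacna2d4 by 0.76 (0.39 to 1.12) in 12 libraries at 10 weeks. As titled the first of these intervals included 0, at 0.25 (-0.11 to 0.62). These comparisons read Cacna2d1 through its brightest probe set alone. The probe set almost as bright differed by 0.19 in 12 libraries, less than the 0.49 of Cacna2d2, so the order within the family depends on the probe set.

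At 3 weeks Cacna2d3, an α2δ gene made in brain, differed by 0.22 in 12 libraries (95% interval 0.04 to 0.40, adjusted p = 0.323). It read 10.54, 10.52 and 10.62 in controls and 10.82, 10.79 and 10.73 in Tfr1-null replicates 2 to 4, which did not overlap, and 10.53 in the library titled Tfr1-null 3 weeks 1. The other α2δ genes differed by between -0.00 and 0.07.

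The pore subunits set which kind of calcium current a channel carries. T-type channels open near the resting potential and help to drive rebound and burst firing. Cacna1g, a T-type pore, read 10.20, 10.25 and 10.26 in control replicates 2 to 4 at 10 weeks and 9.56 in the library titled Control 10 weeks 1. In the Tfr1-null libraries it read 9.28, 9.90 and 9.68, below the 3 controls, with the library of doubtful label inside their range. Cacna1g fell by 0.62 log2 units in 12 libraries, 1.53-fold (SE 0.16, 95% interval -0.96 to -0.27, adjusted p = 0.0303), and as titled it differed by -0.45 (adjusted p = 0.235).

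That call stood close to the threshold. It was lost without Tfr1-null 10 weeks 1 (-0.45, adjusted p = 0.0761), Tfr1-null 10 weeks 3 (-0.65, adjusted p = 0.0595), Control 10 weeks 2 (-0.64, adjusted p = 0.0503), Control 10 weeks 3 (-0.61, adjusted p = 0.0652) or Control 10 weeks 4 (-0.60, adjusted p = 0.062). It was also lost in a fit to the 10-week libraries alone (adjusted p = 0.162) and with array weights (adjusted p = 0.139). At 3 weeks the difference of Cacna1g was -0.17 (adjusted p = 0.863).

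Cacna1h, the other T-type pore measured, read 8.24, 8.75 and 8.78 in control replicates 2 to 4 at 10 weeks, 8.76 in the library titled Control 10 weeks 1, and 8.84, 8.88 and 9.09 in Tfr1-null libraries, which lay above every control. Its difference of 0.35 in 12 libraries was not called (adjusted p = 0.184). The change of Cacna1g minus that of Cacna1h was -0.96 (SE 0.18, 95% interval -1.36 to -0.56) in 12 libraries and -0.75 (-1.30 to -0.20) as titled.

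L-type channels carry long-lasting currents, and Cacna1d and Cacna1c are their pores in neurons. Cacna1d read 7.72, 7.82 and 7.76 in 3-week controls and 7.81, 8.06, 7.72 and 8.21 in Tfr1-null libraries. At the later age they were 9.15, 8.81, 8.56 and 8.39 in controls and 8.47, 8.49 and 9.72 in Tfr1-null libraries. The groups overlapped at both ages, and 1 Tfr1-null library stood above the rest at 10 weeks. The difference in 12 libraries was 0.23 at 3 weeks (95% interval -0.40 to 0.86) and 0.30 at 10 weeks (-0.33 to 0.93), with adjusted p of 0.93 and 0.561. As titled Cacna1d differed by 0.18 and 0.16.

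Those intervals exclude a fall as large as that of Atp2a3. The second probe set of Cacna1d read 7.79 in each of the 3 Tfr1-null libraries at 10 weeks and 7.49, 7.07 and 7.57 in control replicates 2 to 4, with 6.98 in the library titled Control 10 weeks 1. It differed by 0.41 in 12 libraries (SE 0.15, adjusted p = 0.124 over all probe sets), which was not called. Cacna1c differed by 0.06 at 3 weeks and 0.11 at 10 weeks.

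The skeletal muscle pore Cacna1s read 4.69, 4.55 and 4.55 in 3-week controls and 4.57, 4.15, 4.19 and 4.59 in Tfr1-null libraries, with overlap, and differed by -0.29 in 12 libraries (adjusted p = 0.406). As titled that difference was -0.22. At 10 weeks it was not above background in any library. The muscle actin gene Acta1 fell by 2.08 at 10 weeks in 12 libraries (adjusted p = 0.0264), and the summed signal of the 8 muscle markers was 949 to 2417 in controls and 644 to 764 in Tfr1-null libraries, beside 426 to 448 and 309 to 334 at 3 weeks, with no overlap at either age. Of the muscle forms among the members, Atp2a1 differed by -0.05 and the ryanodine receptor Ryr1 by -0.00 at that age.

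P/Q-, N- and R-type channels trigger transmitter release. Cacna1b, the N-type pore, read 11.16, 11.06 and 11.14 in 3-week controls and 11.11, 11.24, 11.16 and 11.23 in Tfr1-null libraries. The 10-week readings were 11.89, 11.93, 11.59 and 11.79 in controls and 11.82, 12.06 and 12.11 in Tfr1-null libraries. The groups overlapped at both ages. The differences in 12 libraries were 0.09 and 0.23 (adjusted p = 0.93 and 0.216), and those of Cacna1a, the P/Q-type pore, were 0.06 and -0.17. Cacna1e, the R-type pore, differed by -0.12 and 0.26. As titled Cacna1b differed by 0.06 and 0.20. The name of the probe set used for Cacna1b marks it as open to cross-hybridization.

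The β subunits hold the pore at the membrane from the inside. Of the 3 measured, Cacnb4 read 11.08, 11.01 and 10.85 in 3-week controls and 11.08, 11.14, 11.02 and 11.32 in Tfr1-null libraries. At 10 weeks it read 11.29, 11.15, 11.12 and 11.67 in controls and 11.38, 11.30 and 11.45 in Tfr1-null libraries. The groups overlapped, and the differences were 0.18 and 0.06 in 12 libraries and 0.16 and 0.07 as titled. Cacnb1 differed by -0.16 and -0.06 and Cacnb2 by 0.01 and -0.12, and 0 of the 3 were called by limma or had an unadjusted p under 0.05.

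The γ genes encode proteins that were named for a channel subunit of muscle, several of which serve in the brain as partners of AMPA-type glutamate receptors. None of the 8 was called by limma at either age in 12 libraries or as titled. In 12 libraries 0 at 3 weeks and 2 at 10 weeks had an unadjusted p under 0.05. Of all genes 10.6% and 26.4% did. Cacng7, an AMPA receptor partner, read 10.29, 10.45 and 10.18 in 3-week controls and 10.38, 10.21, 10.44 and 10.45 in Tfr1-null libraries. The 10-week readings were 10.88, 10.43, 10.60 and 10.91 in controls and 11.07, 10.73 and 11.25 in Tfr1-null libraries. The groups overlapped, and the 10-week difference was 0.37 in 12 libraries (adjusted p = 0.17) and 0.31 as titled. Cacng5, a further AMPA receptor partner, had the lowest differences of the family, -0.60 at 3 weeks (adjusted p = 0.571) and -0.70 at 10 weeks (adjusted p = 0.174), or -0.40 and -0.58 as titled. It read 8.33, 9.29 and 8.54 in Tfr1-null replicates 2 to 4 at 3 weeks and 9.30, 9.23 and 9.41 in controls, which overlapped.

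Of the 4 plasma membrane pumps, which push calcium out of the cell, Atp2b1 came nearest to the threshold. At 3 weeks it read 10.92, 10.90 and 10.65 in controls and 10.93, 10.83, 10.83 and 10.77 in Tfr1-null libraries. At the later age they were 11.45, 11.70, 11.14 and 11.34 in controls and 11.94, 11.80 and 11.69 in Tfr1-null libraries. The groups overlapped at 10 weeks because Control 10 weeks 2 exceeded the lowest Tfr1-null library. The difference was 0.41 in 12 libraries (95% interval 0.11 to 0.72, adjusted p = 0.0851) and 0.40 as titled (adjusted p = 0.115), and neither was called. Without Control 10 weeks 2 the difference was 0.57 and passed the test (adjusted p = 0.0167). That library was the highest control and its label was not doubtful, so the pass rests on leaving it out.

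All 3 probe sets of Atp2b1 differed alike at 10 weeks, by 0.41, 0.41 and 0.36, with none called. At 3 weeks the difference of Atp2b1 was -0.01 (95% interval -0.32 to 0.29). Atp2b2, Atp2b3 and Atp2b4 spanned -0.19 to 0.38 at 10 weeks and -0.18 to 0.13 at 3 weeks.

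**Figure D4:**
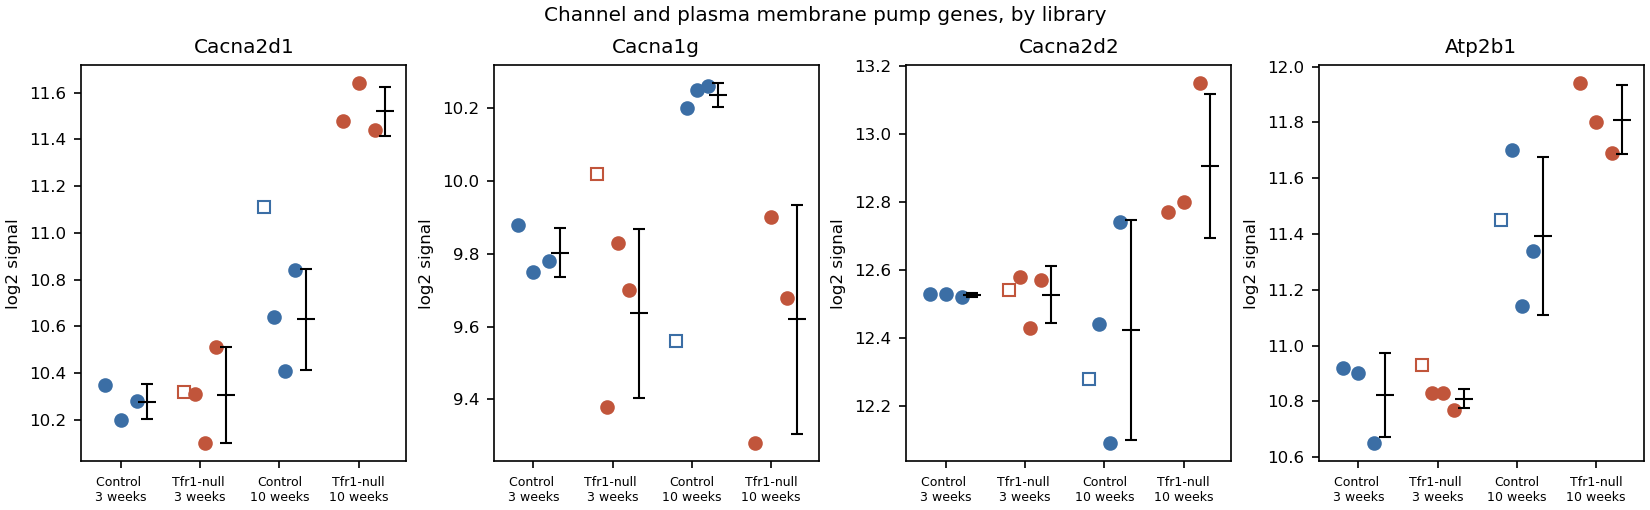
Log2 signal of Cacna2d1, Cacna1g, Cacna2d2 and Atp2b1 (vertical axes, each with its own scale) in every library, in 4 groups by genotype and age (horizontal axis; control blue, Tfr1-null red). Filled circles are the 12 libraries, open squares the libraries titled Tfr1-null 3 weeks 1 and Control 10 weeks 1, and bars the mean ± SD of the circles. At 10 weeks the red circles lie above all blue circles for Cacna2d1 and Cacna2d2 and below them for Cacna1g, and overlap them for Atp2b1.

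The Golgi pumps fill the secretory pathway with calcium and manganese. Atp2c2 read 5.77, 5.59 and 5.41 in 3-week controls, 5.13, 5.32 and 5.25 in Tfr1-null replicates 2 to 4 and 5.63 in the library titled Tfr1-null 3 weeks 1. Replicates 2 to 4 lay below all controls, by 0.36 on average (95% interval -0.66 to -0.06), but the difference did not pass the test (adjusted p = 0.326). With array weights it did, at -0.38 (adjusted p = 0.0345). As titled Atp2c2 differed by -0.26 at 3 weeks and -0.23 at 10 weeks. At 10 weeks Atp2c2 read 6.34, 6.42, 6.54 and 6.79 in controls and 6.37, 6.42 and 6.09 in Tfr1-null libraries, which overlapped. Atp2c1, the widespread Golgi pump, differed by -0.08 and -0.04.

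None of the 5 channels that release calcium from the store was called by limma at either age, or had an unadjusted p under 0.05. Itpr3, an IP3 receptor, read 5.84, 5.81 and 5.65 in 3-week controls and 6.04, 5.84, 5.84 and 5.94 in Tfr1-null libraries. At 10 weeks it read 6.82, 6.71, 6.71 and 6.70 in controls and 6.85, 7.00 and 6.42 in Tfr1-null libraries. The groups overlapped at both ages, and the differences of Itpr3 and Itpr2 in 12 libraries lay between 0.05 and 0.11. Ryr2, the ryanodine receptor best known from heart and also made in brain, read 8.01, 7.59 and 7.43 in 3-week controls and 7.89, 7.02, 7.43 and 7.50 in Tfr1-null libraries. At the later age they were 7.21, 8.64, 7.59 and 7.83 in controls and 8.67, 7.96 and 8.20 in Tfr1-null libraries. Again the groups overlapped, and the differences were -0.36 (95% interval -0.98 to 0.26) and 0.26 (-0.36 to 0.88). As titled Ryr2 differed by -0.22 and 0.46 and Itpr3 by 0.15 and 0.02. Ryr3 differed by 0.05 and -0.36.

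Other genes of calcium handling were read from 7 lists that name 93 genes, 85 of them measured. As titled, 0 of the 85 were called by limma at either age. An unadjusted p under 0.05 was reached by 4 at 3 weeks and 20 at 10 weeks, beside 4.67% and 19.9% of all genes. In 12 libraries 1 fell at 3 weeks (1.18%, against the 1.84% of all genes) and 6 rose and 10 fell at 10 weeks (18.8%, against the 11.1% of all genes). The median difference of the 85 was 0.00 at both ages, beside 0.01 and -0.01 for all genes.

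The gene that fell at 3 weeks was Calb2, which encodes the buffer protein calretinin, by 0.72 (SE 0.11, adjusted p = 0.00591). Calb1, the calbindin gene that marks dopaminergic neurons known to be spared in Parkinson's disease, differed by -0.08 at 3 weeks and -0.17 at 10 weeks and was not called. Among buffers and sensors at 10 weeks, the neuronal calcium sensor Hpcal4 fell by 0.71 (SE 0.10, adjusted p = 0.0012), Sri, the gene of sorcin, by 0.42 and Necab3 by 0.66, whereas Hpcal1 rose by 0.44 and Necab1 by 0.62.

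The genes that work beside the store and its pumps were also mixed at 10 weeks. Of 17 measured, Tmem38b, a potassium channel of the endoplasmic reticulum that balances the charge of calcium release, rose by 0.41. Fkbp1b, which steadies ryanodine receptors, fell by 0.98 and Jph2, which ties the store to the cell surface, by 0.73. Of the 9 genes of mitochondrial calcium uptake, Letm1, an ion exchanger of the inner membrane, rose by 0.62 and Smdt1, a part of the uniporter, fell by 0.34, while Mcu, the uniporter pore, differed by -0.09. Of 8 exchangers, Slc24a2, which trades sodium for calcium and potassium, fell by 0.74.

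Of 17 kinases, phosphatase and protease genes at 10 weeks, Camk1 rose by 0.47 and the calcineurin subunit Ppp3cb by 0.43. Camkk2, the kinase that switches Camk1 on, fell by 0.93 (SE 0.19, adjusted p = 0.0121), and Rcan2, a calcineurin regulator, by 0.40. Of the 11 channel partners, Rims1, which holds calcium channels at release sites, fell by 0.77. None of the 7 genes of store-operated entry was called by limma. At 10 weeks 26.4% of all genes had an unadjusted p under 0.05, as had 4 of these 7. They were Stim1, the sensor of an empty store, at 0.31 (adjusted p = 0.122), its relative Stim2 at 0.36 (adjusted p = 0.181), the channel gene Orai3 at -0.84 (adjusted p = 0.144) and Stimate at -1.01 (adjusted p = 0.188). Orai1, the channel that Stim1 opens, was not among them, at -0.28 (adjusted p = 0.436).

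**Figure D5:**
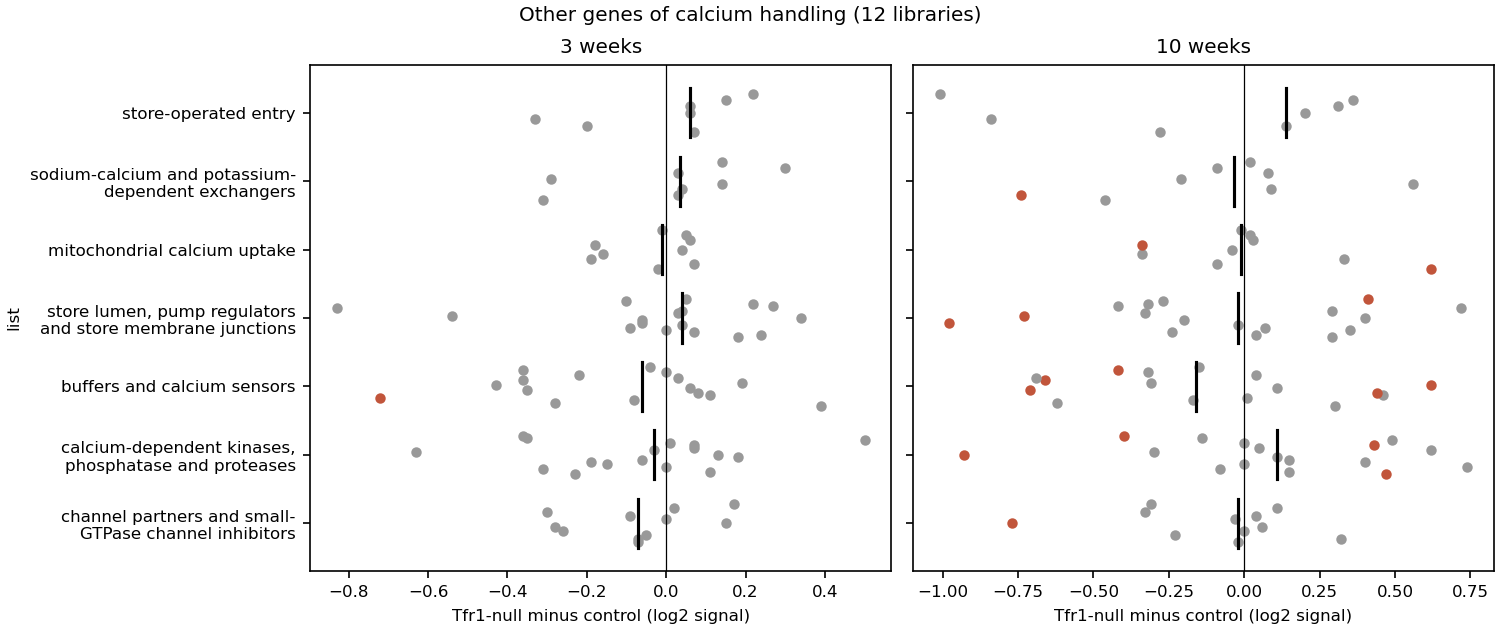
Difference between Tfr1-null and control in log2 signal (horizontal axes) for the genes of 7 lists of calcium handling (vertical axis), at 3 weeks (left) and 10 weeks (right), in 12 libraries. Each point is a gene, red marks the genes called, and the vertical bar is the median of the list. At 3 weeks 1 point is red, Calb2 at -0.72; at 10 weeks 16 are, on both sides of 0.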

How the data were processed

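The authors deposited log2 signals of 14 Affymetrix arrays, made per the submitters' processing notes with RMA in Partek 6.5; per the labels, 50 ng of RNA was amplified for each library. The sources used here do not give a genome build for the probe sets. Of 45101 probe sets, 34945 with a single gene symbol were used, covering 18193 genes, each through the probe set with the highest mean; no filter on dim genes was applied, and values were taken as deposited. Groups followed titles and genotypes. Differences were fitted with limma 3.58.1 in R 4.3.3 (lmFit and eBayes, 4 group means, 1 shared spread per gene), with Benjamini-Hochberg adjustment across all genes, or across all probe sets where that is said. Adjusted p under 0.05 counted as called, and both fits, to 14 and to 12 libraries, were tested on simulated data. The simulated libraries held no wrong label, so that test does not bear on the doubtful ones. The number of arrays limits the precision. A value under the 25th percentile of its array was taken as not above background.

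The members, the 7 calcium lists and 10 marker lists, the 12 libraries and the naming rule were chosen with earlier results of these data known. The rule names the genes set against each other, called members, and the member with the smallest p in each role group; Cacna2d2, Cacna2d3, Cacna1h and Cacng5 were given library values after their values were seen. Alternatives were the mean of a gene's probe sets, a filter on dim genes, array weights, centring on array medians, each age alone, a replicate block and leaving out each library. Promoters were matched to RefSeq by symbol for 28 of 38 genes.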

Additional observations from a re-analysis of the deposited data

Results flagged for a closer look

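In 26 groups of 4 libraries, 1 sample far from the others was sought, which chance gives in about 1 of 20 groups. Cacna1g stood apart in the library titled Control 10 weeks 1, at 9.56 beside 10.20 to 10.26 in the other controls, a gap of 0.91 of the whole range. Itpr3 stood apart in the same library, at 6.82 beside 6.70 to 6.71, a gap of 0.88 of a much narrower range. That library is one of the pair with doubtful labels.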

How the results depend on the processing

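The count of members called moved as follows. At 3 weeks it was 0 as titled, 1 with array weights and 0 to 1 on leaving out each library; in 12 libraries it was 1, with 3 under array weights and 0 under a replicate block. At 10 weeks it was 1 as titled, 0 with array weights, the 10-week libraries alone, the mean of probe sets or a replicate block, and 0 to 2 on leaving out each library; in 12 libraries it was 3, with 1 in the 10-week libraries alone and 0 under the block. The block took Atp2a3 to -3.56 (adjusted p = 0.0919) and -2.61 (adjusted p = 0.0669). In 12 libraries only replicates 2 and 3 occur in both genotypes at each age. The block estimates there rest on these alone, so calls lost under it also reflect fewer libraries. The titles number the libraries without stating any pairing. Deviations of same-numbered libraries correlated at -0.078 to 0.088 over all genes. Such a correlation would show only a shift shared by many genes, so it does not settle whether the libraries were paired. Counts for the difference between ages stayed at 0. Sign changes were of differences that were not called. They were, for the mean of probe sets, Atp2a2 -0.07 and Cacnb4 -0.07 at 10 weeks and Cacna2d1 -0.08 at 3 weeks; under the block, Atp2b1 0.05 and Cacna2d1 -0.03 at 3 weeks and Itpr3 -0.01 and Ryr2 -0.04 at 10 weeks; for Atp2b1 at 3 weeks, 0.01 after centring on array medians and 0.02 as titled. On leaving out each library the 3-week ranges were Atp2a2 from -0.08 to 0.02 (also 0.01), Atp2b1 from -0.10 to 0.03 (also 0.01), Cacna2d1 from -0.07 to 0.13 (also -0.01) and Cacng7 from -0.00 to 0.14; at 10 weeks they were Cacna1d from -0.11 to 0.51, Cacna1s from -0.02 to 0.07, Cacnb4 from -0.04 to 0.24 (also -0.02) and Itpr3 from -0.07 to 0.21 (also -0.00). The cause was not tested.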
